A study of Mus musculus with 12 samples.

Results

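Complement and coagulation factors are plasma proteins that the liver makes and secretes, and 40 of their genes were followed in the livers of mice given siRNA against Eif3m, a subunit of the translation initiation factor eIF3. The genes were taken by name, from a list drawn up with earlier results of these data known: 18 complement components and regulators and 22 coagulation factors and inhibitors, among 50686 genes in the table. All 40 passed the filter on low counts and are among the 14248 genes tested, and the smallest count of any of them in any library was 277. Poly(A) RNA of whole liver was sequenced from FVB/N mice of 6 to 8 weeks whose tail veins were injected, once in 5 days, with 0.5 mg/kg of siRNA packed in lipid nanoparticles (LNP). The 4 groups, of 3 libraries each, are Eif3m siRNA for 9 days, control siRNA (scrambled luciferase) for 9 days, Eif3m siRNA for 13 days and control siRNA for 13 days. All mice thus received nanoparticles and an siRNA, and no uninjected group enters the comparisons. The labels do not say whether the 3 libraries of a group came from separate animals, so the p-values measure the spread between these libraries, which may be technical. In whole liver, fewer cells of a type and less RNA per cell cannot be told apart.

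Complement is a cascade of plasma proteases and binding proteins. The classical pathway starts from C1q bound to antibody, the lectin pathway from mannose-binding lectins bound to microbial sugars, and both cut C4 and C2 to build an enzyme that cuts C3, while the alternative pathway does the same with factor B. C5 and the following components then assemble into a pore in the target membrane. Coagulation is a second protease cascade, in which factor VII and the contact proteases lead through factors IX and X to thrombin, which turns fibrinogen into fibrin. Several of its proteases need a vitamin K-dependent modification, plasma serpins and the protein C system hold it back, and plasmin dissolves the clot. Hepatocytes are the main source of most of these proteins.

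Total counts were 38783564 to 54538581 per library at day 9 and 7650269 to 9630027 at day 13, so day 13 values carry more counting error. Library names also form a separate series at each day, so day and library series cannot be told apart. The target gene, Eif3m, stood at 4.88, 4.78 and 4.71 CPM in Eif3m siRNA livers of day 9 against 45.1, 44.1 and 45.4 CPM in control livers of day 9, and at 2.52, 2.41 and 2.19 CPM in Eif3m siRNA livers of day 13 against 39.8, 38.0 and 31.2 CPM in control livers of day 13. Among the Eif3m siRNA libraries of day 9, replicate 2 was the lowest of the 3 for 32 of the 40 genes. Among those of day 13, replicate 2 was the lowest for 31 of the 40. Among the day 13 controls, replicate 3 was the lowest for 22 genes. Albumin, the main product of hepatocytes, took 7.05% to 7.40% of counts in Eif3m siRNA livers of day 9 against 8.53% to 9.12% in control livers of day 9, and 8.29% to 11.7% in Eif3m siRNA livers of day 13 against 14.4% to 14.7% in control livers of day 13. CPM, the count of a gene relative to its library's total, is scaled here for library composition with TMM factors. All log2 fold changes are Eif3m siRNA over control within a day, tested with edgeR's quasi-likelihood test at an adjusted p under 0.05 (Benjamini-Hochberg over all 14248 genes). A pair of log2 fold changes given for a gene without days is that of day 9 and then that of day 13.

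Complement transcripts moved in both directions, and coagulation transcripts were called in 1 direction, lower. At day 9, 2 of 18 complement genes rose (C8a and Mbl2) and 1 fell (C8g), where 5.94% of all genes tested rose and 6.84% fell, 12.8% in all. At day 13, 4 of 18 complement genes rose (Hc, C8a, C4bp and Mbl2) and 7 fell (C1ra, C1s1, C4b, C8g, Cfb, Mbl1 and Serping1), where 12.8% of all genes rose and 10.9% fell, 23.7% in all. Of the 22 coagulation genes, 2 fell at day 9 (F7 and Proz), 3 fell at day 13 (F7, Proz and Proc) and none rose at either day. The count of 3 of 22 at day 13 is close to the share of all genes that fell. It was 8 with upper-quartile scaling, with a filter at a mean of 5 CPM or with DESeq2, and 6 without control replicate 3 of day 13. At day 9, the complement split of 2 up and 1 down became 1 and 1 with DESeq2 size factors.

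No change reached 2-fold by its estimate at either day. By estimate, 2 of the 40 genes had changed at least 1.5-fold at day 9 and 9 at day 13. At day 9, 35 genes were not called, at day 13, 26 were not called, and 26 were called at neither day. Of all genes tested, 12.8% were called at day 9 and 23.7% at day 13. The 5 genes called at both days were C8a, C8g, Mbl2, F7 and Proz. Shares of all genes were not counted for changes of these sizes, or for calls at both days or at neither. Those counts thus have no background beside them.

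**Figure D1:**
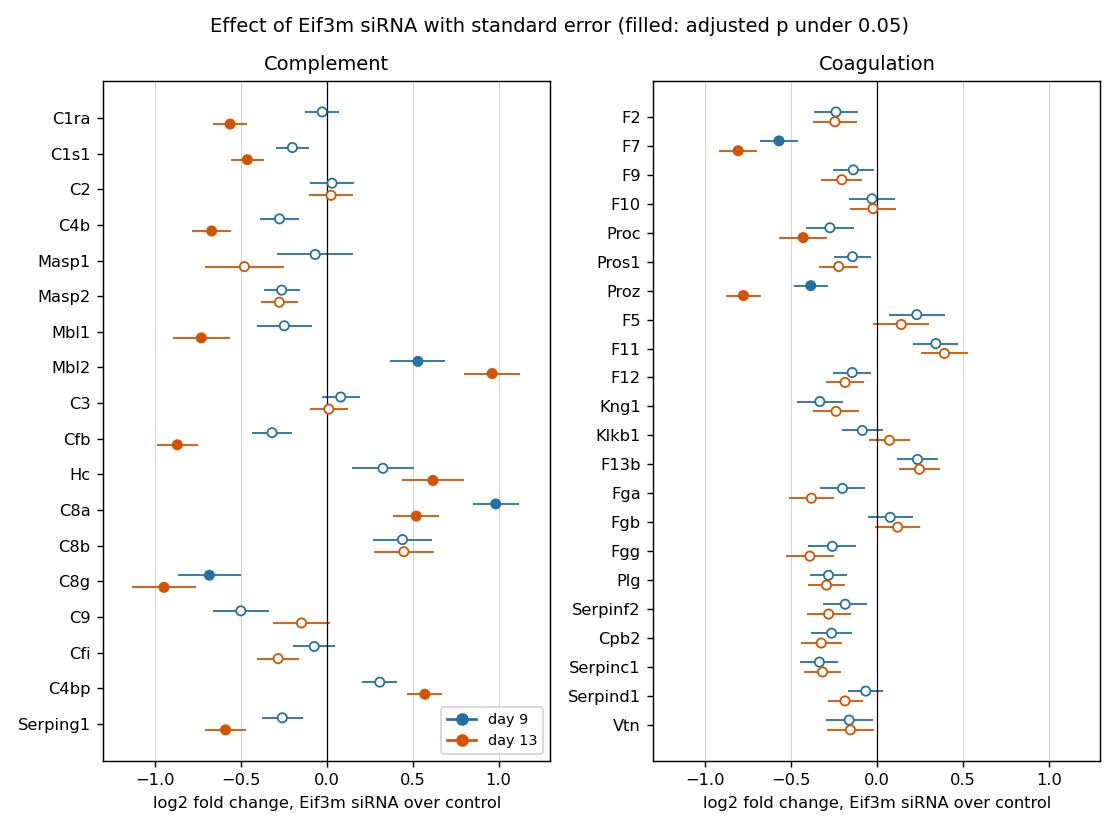
Log2 fold change of each of the 40 genes (Eif3m siRNA over control, with its SE) at day 9 and day 13, complement and coagulation apart. Filled points passed an adjusted p of 0.05; complement points lie on both sides of 0, from −0.95 for C8g to 0.96 for Mbl2 at day 13, and the called coagulation points all lie below 0.

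The median log2 fold change of the 18 complement genes was −0.07 at day 9 and −0.28 at day 13, and that of the 22 coagulation genes was −0.17 at day 9 and −0.23 at day 13, beside 0.01 and 0.00 for all genes tested. Most coagulation genes had a small negative estimate: 18 of 22 were below 0 at day 9 and 17 of 22 at day 13, where 48.3% and 49.8% of all genes were. In 13 of the 22 coagulation genes all 3 Eif3m siRNA libraries of day 9 lay below all 3 controls, and in 10 of 22 at day 13, where 21.0% and 16.0% of all genes did. In 2 of 22 at day 9 and 1 of 22 at day 13 they all lay above the controls. Within groups the 40 genes spread less than all genes tested, so small shifts separate their groups more readily. In complement, 8 genes at day 9 and 9 at day 13 had all Eif3m siRNA libraries below all controls, and 4 genes at each day had them all above, where 22.5% of all genes at day 9 and 17.2% at day 13 were above. As shares of all counts, the complement genes held 2.06% to 2.14% in Eif3m siRNA livers of day 9 against 1.88% to 1.98% in control livers of day 9, and 1.83% to 2.18% in Eif3m siRNA livers of day 13 against 1.82% to 2.17% in control livers of day 13. Shares are not scaled with TMM factors, and the summed complement CPM, which is, gave another picture. It overlapped at day 9, at 19330 to 20370 in Eif3m siRNA livers against 18716 to 20340 in control livers. At day 13 it was 19472 to 19718 in Eif3m siRNA livers against 20183 to 21627 in control livers, without overlap. C3 alone made up 1.25% to 1.36% of counts in Eif3m siRNA livers of day 9 against 1.09% to 1.18% in control livers of day 9, and 1.21% to 1.52% in Eif3m siRNA livers of day 13 against 1.11% to 1.42% in control livers of day 13. Without C3, the complement share was 0.762% to 0.857% in Eif3m siRNA livers of day 9 against 0.785% to 0.807% in control livers of day 9, and the groups overlapped. At day 13 it was 0.624% to 0.674% in Eif3m siRNA livers against 0.709% to 0.742% in control livers, with every Eif3m siRNA library below every control. The coagulation genes held 2.80% to 2.90% in Eif3m siRNA livers of day 9 against 2.97% to 2.98% in control livers of day 9, and 2.73% to 2.92% in Eif3m siRNA livers of day 13 against 2.91% to 3.13% in control livers of day 13.

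**Figure D2:**
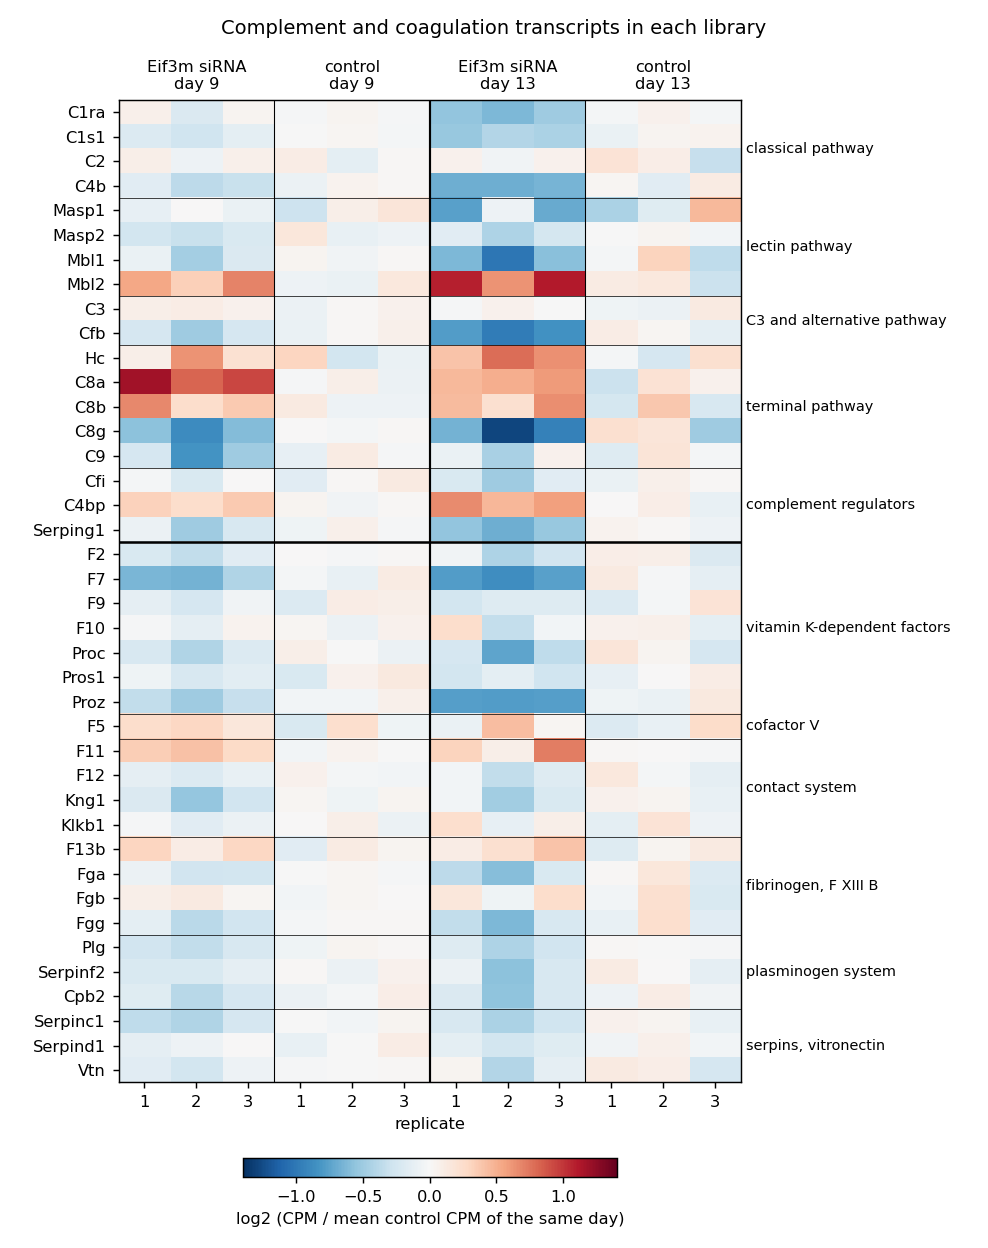
Log2 CPM of the 40 genes in each of the 12 libraries, as the difference from the mean of the control libraries of the same day. Genes run down the page by role and libraries run across it; the 7 complement genes that fell at day 13 and F7, Proz and Proc are below their controls in all 3 Eif3m siRNA libraries of day 13, and C8a, C4bp and Mbl2 are above in all 3 at both days.

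Levels differed widely among the genes. Per kilobase of merged exon, mean levels in control livers of day 9 ran from 9.27 CPM per kb for Masp1 to 2247 CPM per kb for C3. C3 was followed by the fibrinogen chains Fgg at 1545, Fga at 1448 and Fgb at 1127 CPM per kb, and by vitronectin (Vtn) at 1113 CPM per kb. After Masp1 the lowest were Pros1 at 15.2, Hc at 20.4 and C2 at 21.5 CPM per kb. Merged exons take in every annotated exon of a gene, 9833 bases for Masp1 and 8546 for Serpinc1. The order of the genes thus depends on the annotation. In CPM not divided by length, Pros1 at 62.2 lay below Masp1 at 91.1 in control livers of day 9. C3, the fibrinogen chains and Vtn were not called at either day.

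**Figure D3:**
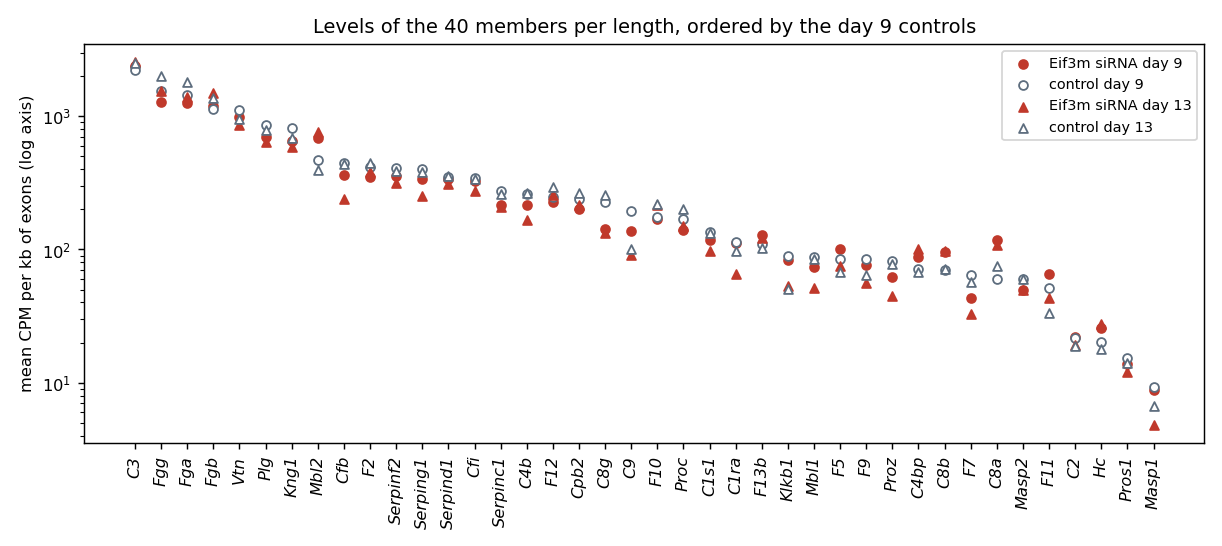
Mean level of each gene per kilobase of merged exon (CPM per kb, log axis) in Eif3m siRNA and control livers at each day. C3 and the 3 fibrinogen chains are at the high end and Masp1, Pros1, Hc and C2 at the low end in control livers of day 9.

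The classical pathway had the largest share of called genes of any role, 3 of 4, all lower at day 13. C1ra encodes C1r, the protease that starts the cascade within the C1 complex. At day 9 it stood at 359, 297 and 349 CPM in Eif3m siRNA livers against 336, 349.6 and 337 CPM in control livers, and the groups overlapped. At day 13 it stood at 197, 187 and 205 CPM in Eif3m siRNA livers against 284, 302 and 285 CPM in control livers, and every Eif3m siRNA library lay below every control. Its log2 fold change was −0.03 (adjusted p = 0.9, SE 0.10) at day 9 and −0.56 (adjusted p = 0.00116, SE 0.10) at day 13. The day 13 effect minus the day 9 effect was −0.54 (adjusted p = 0.0582, SE 0.14), which did not pass. Without Eif3m siRNA replicate 2 of day 9 it did (adjusted p 0.00193 to 0.163 over the alternatives).

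C4b, which encodes C4, the source of the C4b fragment in the C3-cutting enzyme, had 1342, 1162 and 1208 CPM in Eif3m siRNA livers against 1418, 1554 and 1519 CPM in control livers at day 9. The day 13 values were 946, 945 and 964 CPM in Eif3m siRNA livers against 1541, 1355 and 1644 CPM in control livers. All Eif3m siRNA libraries lay below all controls at both days, with a log2 fold change of −0.27 (adjusted p = 0.124, SE 0.11) at day 9 and −0.67 (adjusted p = 0.000748, SE 0.11) at day 13. C1s1, for the C1s protease that cuts C4 and C2, averaged 369 ± 18.1 CPM in Eif3m siRNA livers against 423 ± 8.04 CPM in control livers at day 9 (SD, n = 3 each). At day 13 it averaged 304 ± 12.7 CPM in Eif3m siRNA livers against 419 ± 23.3 CPM in control livers (SD, n = 3 each), which is −0.46 (adjusted p = 0.00309, SE 0.09) as a log2 fold change. C2, the protease of the C3-cutting enzyme, is the member of this role that was not called, with log2 fold changes of 0.03 (adjusted p = 0.905, SE 0.13) at day 9 and 0.03 (adjusted p = 0.914, SE 0.13) at day 13. C1ra, C1s1 and C4b have close copies in the mouse genome (C1rb, C1s2 and C4a), and how the estimated counts were divided between the copies is uncertain.

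C1ra and C1s1 lie 6901 bases apart on chromosome 6 and are transcribed towards the same intervening stretch. They are the called classical pathway genes found in the RefSeq promoter table (GRCm38.p6), and the 250 bases before their starts are shown because this role had the largest share of its genes called in 1 direction, although its C2 was not called. Capitals mark matches to the motifs searched. These were the HNF1 motif GTTAAT, the HNF4 motif CAAAGTCCA, the C/EBP motifs TTGCGCAA and TTNNGNAA (the first being a special case of the second), the STAT3 motif TTCNNNGAA and the CCAAT box CCAAT, all on both strands. C1ra is at chr6:124512371-124512620, plus strand, and C1s1 at chr6:124542360-124542609, minus strand. The annotation used for gene positions starts C1ra at base 124512405, inside its window. All marked matches of C1ra thus lie before the RefSeq start but after that annotated start.
C1ra: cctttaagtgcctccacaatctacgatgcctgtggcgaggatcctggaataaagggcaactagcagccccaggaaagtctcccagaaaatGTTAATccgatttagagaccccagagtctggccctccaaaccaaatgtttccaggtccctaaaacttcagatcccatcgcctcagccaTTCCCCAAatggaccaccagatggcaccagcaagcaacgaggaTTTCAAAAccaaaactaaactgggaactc
C1s1: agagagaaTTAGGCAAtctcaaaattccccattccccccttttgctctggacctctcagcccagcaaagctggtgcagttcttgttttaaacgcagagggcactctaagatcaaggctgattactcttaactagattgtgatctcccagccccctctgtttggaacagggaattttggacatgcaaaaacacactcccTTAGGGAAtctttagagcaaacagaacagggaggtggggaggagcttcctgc
Each holds TTNNGNAA at 2 places. These start 72 and 29 bases before the RefSeq start of C1ra and 242 and 52 bases before that of C1s1. C1ra also holds GTTAAT. TTNNGNAA occurs in 36.8% of the 32851 promoters of that length in the table, and GTTAAT in 6.43%. Of the 40 genes, 31 are in the table, and 14 of them hold TTNNGNAA and 10 hold GTTAAT. The 10 are C1ra, Hc, C8a, C8b, C4bp, F13b, Fga, Fgb, Proz and Vtn, which include genes that rose, fell and were not called. STAT3 matches were found in 6 of the 31 genes against 7.02% of all promoters, and CCAAT in 6 of 31 against 33.8%. CAAAGTCCA and TTGCGCAA, held by 0.384% and 0.164% of promoters, were found in none of the 31 windows. These are letter matches within a short window.

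Beside the classical pathway, Cfb fell at day 13 and C3 was not called. Cfb encodes factor B, the protease of the alternative pathway. At day 9 it had 1078, 893 and 1076 CPM in Eif3m siRNA livers against 1185, 1284 and 1328 CPM in control livers. Cfb stood at 722, 629.9 and 693 CPM in Eif3m siRNA livers against 1334, 1265 and 1135 CPM in control livers at day 13. All 3 Eif3m siRNA libraries lay below the controls at both days, and the log2 fold change was −0.32 (adjusted p = 0.0942, SE 0.12) at day 9 and −0.87 (adjusted p = 0.000175, SE 0.12) at day 13, or 54.8% of the control mean. The difference between the days was −0.55 (adjusted p = 0.0919, SE 0.17). C3, on which all pathways meet, averaged 12226 ± 169.6 CPM in Eif3m siRNA livers against 11554 ± 604 CPM in control livers at day 9 and 13126 ± 355 CPM in Eif3m siRNA livers against 13012 ± 1046 CPM in control livers at day 13 (SD, n = 3 each), with log2 fold changes of 0.08 (adjusted p = 0.687, SE 0.11) and 0.01 (adjusted p = 0.953, SE 0.11). Cfb and C2 are neighbours on chromosome 17 with 85 bases between them, and both share exon sequence with the annotated transcript Gm20547, so reads could be split between these genes.

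In the lectin pathway, the mannose-binding lectin genes moved in opposite directions at day 13. Both lectins bind sugars on microbes and activate the MASP proteases. Mbl2 rose at both days. It had 745, 647 and 834 CPM in Eif3m siRNA livers against 489, 483 and 569 CPM in control livers at day 9. By day 13 the values were 912, 663 and 923 CPM in Eif3m siRNA livers against 463, 472 and 347 CPM in control livers. All Eif3m siRNA libraries were above all controls at both days, with log2 fold changes of 0.53 (adjusted p = 0.0438, SE 0.16) at day 9 and 0.96 (adjusted p = 0.000793, SE 0.16) at day 13, when the Eif3m siRNA mean was 195% of the control mean. The day 9 call ended when any 1 of the 6 day 9 libraries, or Eif3m siRNA replicate 3 or control replicate 1 of day 13, was left out, and with 2 other scalings (adjusted p 0.00602 to 0.145 over the alternatives).

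Mbl1 averaged 117 ± 15.4 CPM in Eif3m siRNA livers against 138 ± 4.16 CPM in control livers at day 9, and 80.8 ± 12.6 CPM in Eif3m siRNA livers against 134 ± 31.2 CPM in control livers at day 13 (SD, n = 3 each). Its Eif3m siRNA libraries were below all controls at both days, with log2 fold changes of −0.25 (adjusted p = 0.353, SE 0.16) at day 9 and −0.73 (adjusted p = 0.00606, SE 0.17) at day 13. Masp2, the protease that cuts C4 and C2, had log2 fold changes of −0.26 (adjusted p = 0.12, SE 0.10) and −0.28 (adjusted p = 0.0748, SE 0.11) at day 9 and day 13. Masp1, the least abundant of the 40 genes per kilobase of exon, had −0.07 (adjusted p = 0.884, SE 0.22) and −0.48 (adjusted p = 0.157, SE 0.23). Without Eif3m siRNA replicate 2 of day 13, Masp1 passed at day 13 (adjusted p 0.0322 to 0.543 over the alternatives).

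The stretches before the Mbl2 and Mbl1 starts are shown because these related genes moved in opposite directions at day 13; they were chosen after their values were seen. Mbl2 is at chr19:30232678-30232927, plus strand, and Mbl1 at chr14:41151206-41151455, plus strand, both in GRCm38.p6 from RefSeq. In this pair, capitals mark the 30 bases that are most alike between the windows.
Mbl2: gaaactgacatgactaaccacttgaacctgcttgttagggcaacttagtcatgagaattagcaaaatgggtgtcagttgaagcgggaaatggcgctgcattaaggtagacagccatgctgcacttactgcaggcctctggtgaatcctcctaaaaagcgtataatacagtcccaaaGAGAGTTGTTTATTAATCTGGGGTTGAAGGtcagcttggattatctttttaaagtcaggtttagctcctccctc
Mbl1: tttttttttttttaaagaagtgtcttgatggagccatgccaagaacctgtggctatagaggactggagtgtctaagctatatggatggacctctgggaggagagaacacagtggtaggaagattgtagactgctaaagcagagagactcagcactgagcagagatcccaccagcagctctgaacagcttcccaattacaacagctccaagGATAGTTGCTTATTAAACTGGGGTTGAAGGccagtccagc
The capitals match at 27 of 30 bases, and they begin 74 bases before the annotated start of Mbl2 and 40 bases before that of Mbl1. Of the motifs searched, Mbl1 holds 1, the CCAAT box, and Mbl2 holds none in this window.

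The terminal pathway held the rises of Hc and C8a and the fall of C8g. C8 is built of an alpha, a beta and a gamma chain from 3 genes, and it carries the membrane attack complex into the membrane. C8a, for the alpha chain, had 492, 382 and 414 CPM in Eif3m siRNA livers against 216, 230.2 and 206 CPM in control livers at day 9. The day 13 values were 372, 387 and 412 CPM in Eif3m siRNA livers against 220.4, 313 and 283 CPM in control livers. The groups did not overlap at either day, and the log2 fold change was 0.98 (adjusted p = 0.000602, SE 0.13) at day 9, the largest among the 40 genes at either day, and 0.52 (adjusted p = 0.0126, SE 0.13) at day 13. The day 13 call ended without Eif3m siRNA replicate 3 or without control replicate 1 of that day (adjusted p 0.00171 to 0.0562 over the alternatives).

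C8g, for the gamma chain, had 228, 186 and 224 CPM in Eif3m siRNA livers against 344, 336 and 346 CPM in control livers at day 9. C8g stood at 240.4, 156 and 198 CPM in Eif3m siRNA livers against 446, 429 and 270.2 CPM in control livers at day 13. All Eif3m siRNA libraries lay below all controls at both days, with log2 fold changes of −0.68 (adjusted p = 0.0264, SE 0.18) at day 9 and −0.95 (adjusted p = 0.00231, SE 0.19) at day 13. The day 9 call ended when any 1 of the 6 day 9 libraries was left out (adjusted p 0.000857 to 0.116 over the alternatives). C8b, for the beta chain, averaged 242 ± 38.2 CPM in Eif3m siRNA livers against 178 ± 14.4 CPM in control livers at day 9 and 247 ± 35.7 CPM in Eif3m siRNA livers against 181 ± 47.3 CPM in control livers at day 13 (SD, n = 3 each). Its estimates, 0.44 (adjusted p = 0.113, SE 0.17) at day 9 and 0.45 (adjusted p = 0.0777, SE 0.17) at day 13, did not pass, and without control replicate 2 of day 13 the day 13 estimate did (adjusted p 0.00891 to 0.289 over the alternatives). C8b and C8a are neighbours on chromosome 4, 11130 bases apart, and C8g is on chromosome 2.

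Per kilobase of exon, the means of the 3 C8 transcripts lay closer together in Eif3m siRNA livers than in control livers at day 9. C8a had a mean level of 118 CPM per kb in Eif3m siRNA livers and 59.7 CPM per kb in control livers at day 9. C8b had 95.0 CPM per kb in Eif3m siRNA livers and 70.0 CPM per kb in control livers. C8g had 143 CPM per kb in Eif3m siRNA livers and 229 CPM per kb in control livers. At day 13, C8a had 107 CPM per kb in Eif3m siRNA livers and 74.8 in control livers, and C8g had 133 in Eif3m siRNA livers and 256 in control livers. Ratios between the chains were not tested, and levels per kilobase depend on the annotated exon lengths.

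Hc encodes C5, and FVB mice are known to carry an inactive Hc allele and to lack circulating C5 protein. It averaged 160.1 ± 32.9 CPM in Eif3m siRNA livers against 128 ± 26.2 CPM in control livers at day 9 and 172 ± 22.9 CPM in Eif3m siRNA livers against 112 ± 18.1 CPM in control livers at day 13 (SD, n = 3 each). The groups overlapped at day 9 and not at day 13, and the log2 fold change was 0.33 (adjusted p = 0.256, SE 0.18) at day 9 and 0.62 (adjusted p = 0.0243, SE 0.18) at day 13. The day 13 call ended without Eif3m siRNA replicate 2 or 3, or without control replicate 1 or 2, of that day (adjusted p 0.0083 to 0.093 over the alternatives). C9, which forms the ring of the pore, averaged 353 ± 73.1 CPM in Eif3m siRNA livers against 499 ± 41.0 CPM in control livers at day 9 (SD, n = 3 each), with no overlap between the groups, a log2 fold change of −0.50 (adjusted p = 0.0619, SE 0.16). At day 13 its log2 fold change was −0.15 (adjusted p = 0.569, SE 0.17) and the groups overlapped. The C9 estimate at day 9 passed in 7 of the 22 alternatives (adjusted p 0.0281 to 0.224 over the alternatives). These included fits without Eif3m siRNA replicate 1 of day 9 or replicate 2 of day 13. It also passed with no filter, DESeq2, limma-voom and each day fitted alone.

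The soluble regulators also divided. C4bp encodes C4b-binding protein, which takes apart the C3-cutting enzyme of the classical and lectin pathways. It had 599.9, 569 and 618 CPM in Eif3m siRNA livers against 492, 463 and 487 CPM in control livers at day 9. By day 13 the values were 729, 632 and 686 CPM in Eif3m siRNA livers against 461, 490.2 and 427 CPM in control livers. The groups did not overlap at either day, and the log2 fold change was 0.31 (adjusted p = 0.062, SE 0.10) at day 9 and 0.57 (adjusted p = 0.00123, SE 0.10) at day 13. The day 9 estimate passed in 6 of the 22 alternatives (adjusted p 0.00593 to 0.214 over the alternatives). These included the fit without control replicate 3 of day 13, the filter at a mean of 5 CPM, DESeq2, limma-voom and each day fitted alone.

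Serping1 encodes C1 inhibitor, a serpin that blocks C1r, C1s, the MASPs and the contact proteases. It had 887, 668 and 807 CPM in Eif3m siRNA livers against 903, 991 and 931 CPM in control livers at day 9. The day 13 values were 607, 551 and 615 CPM in Eif3m siRNA livers against 919.8, 898 and 848 CPM in control livers. All Eif3m siRNA libraries lay below all controls at both days, with log2 fold changes of −0.26 (adjusted p = 0.173, SE 0.12) and −0.59 (adjusted p = 0.00277, SE 0.12). Cfi, for factor I, the protease that cuts C3b and C4b, was not called, at −0.07 (adjusted p = 0.755, SE 0.12) and −0.28 (adjusted p = 0.115, SE 0.12).

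**Figure D4:**
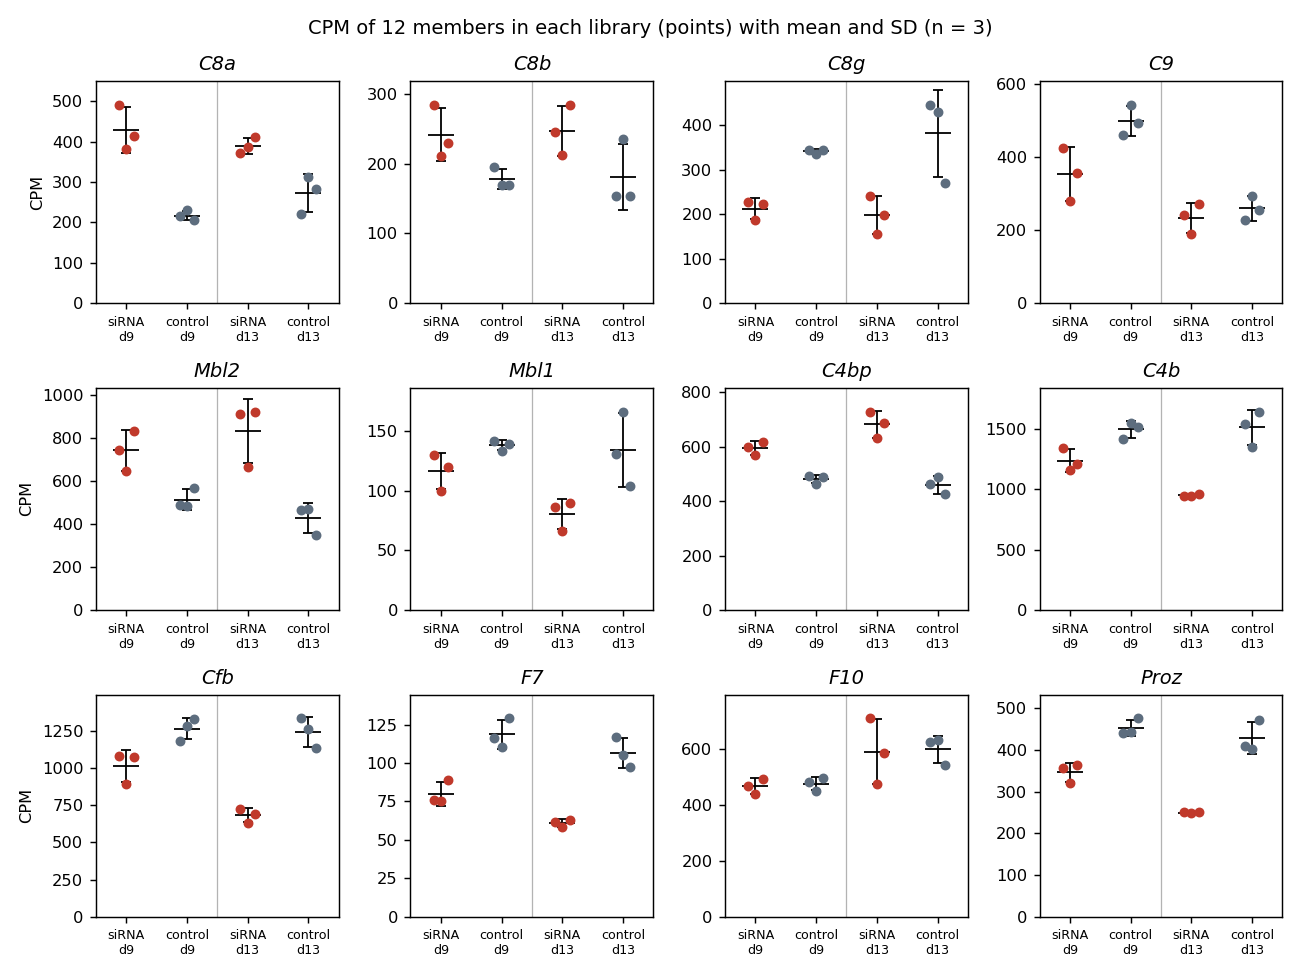
CPM in each library (points) of 12 of the genes, 9 of them called at either day and 3 at neither (C8b, C9 and F10), with the mean and SD of each group of 3. In each panel the Eif3m siRNA libraries stand left of the controls of the same day; C8a and Mbl2 are higher and C8g, F7 and Proz lower with no overlap at both days.

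Among coagulation genes, the calls of the reported fit were all in the vitamin K-dependent group, 2 of its 7 genes at day 9 and 3 at day 13. Of all genes tested, 6.84% fell at day 9 and 10.9% at day 13. The calls were not confined to this group under other settings. Fga, Fgg, Plg, Serpinc1 and Cpb2 also passed at day 13 with upper-quartile scaling, the filter at a mean of 5 CPM and DESeq2. F7 encodes factor VII, which with tissue factor starts clotting. At day 9 it had 76.0, 75.2 and 88.9 CPM in Eif3m siRNA livers against 116, 111 and 129 CPM in control livers. F7 stood at 62.0, 58.1 and 62.6 CPM in Eif3m siRNA livers against 117, 105 and 97.6 CPM in control livers at day 13. The groups did not overlap at either day, and the log2 fold change was −0.57 (adjusted p = 0.00427, SE 0.11) at day 9 and −0.81 (adjusted p = 0.000198, SE 0.11) at day 13.

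Proz encodes protein Z, the cofactor with which a serpin inhibits factor Xa. It had 357, 321 and 363 CPM in Eif3m siRNA livers against 441, 443 and 476 CPM in control livers at day 9. By day 13 the values were 251, 249 and 250.4 CPM in Eif3m siRNA livers against 410.0, 403 and 472 CPM in control livers. The groups did not overlap at either day, with log2 fold changes of −0.38 (adjusted p = 0.0236, SE 0.10) and −0.78 (adjusted p = 0.000123, SE 0.10) and a difference between the days of −0.39 (adjusted p = 0.154, SE 0.14). The day 9 call ended without Eif3m siRNA replicate 2 or any 1 of the 3 controls of that day (adjusted p 6.27e-05 to 0.0865 over the alternatives).

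Proc encodes protein C, which once activated cuts factors Va and VIIIa. At day 9 it had 359, 314 and 368 CPM in Eif3m siRNA livers against 444, 417 and 397 CPM in control livers. The day 13 values were 423, 298 and 389 CPM in Eif3m siRNA livers against 559.6, 510.3 and 424 CPM in control livers. The Eif3m siRNA libraries were below the controls at both days, with log2 fold changes of −0.27 (adjusted p = 0.229, SE 0.14) and −0.43 (adjusted p = 0.0414, SE 0.14). The day 13 call ended without Eif3m siRNA replicate 2 or 3 or control replicate 1 or 2 of day 13, and without Eif3m siRNA replicate 1 or 3 or control replicate 2 or 3 of day 9, and with each day fitted alone (adjusted p 0.0141 to 0.159 over the alternatives).

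The other 4 genes of this group were not called. F2, for prothrombin, had log2 fold changes of −0.24 (adjusted p = 0.244, SE 0.13) and −0.24 (adjusted p = 0.184, SE 0.13). F9, for factor IX, had −0.14 and −0.20, and Pros1, for protein S, the cofactor of protein C, had −0.14 and −0.22. F10, for factor X, averaged 466 ± 27.9 CPM in Eif3m siRNA livers against 476 ± 24.1 CPM in control livers at day 9 and 589.5 ± 117 CPM in Eif3m siRNA livers against 599 ± 48.8 CPM in control livers at day 13 (SD, n = 3 each), with log2 fold changes of −0.03 (adjusted p = 0.921, SE 0.14) and −0.02 (adjusted p = 0.927, SE 0.14). F5, for factor V, the cofactor of factor Xa, was not called either, at 0.23 (adjusted p = 0.388, SE 0.16) and 0.14 (adjusted p = 0.579, SE 0.16).

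F7, F10 and Proz lie side by side on the plus strand of chromosome 8, with 1498 bases between F7 and F10 and 4237 bases between F10 and Proz. The outer genes fell at both days and F10, between them, was not called. The 250 bases before each start are shown for this contrast, chosen after the values were seen, with capitals for matches to the same motifs. F7 is at chr8:13025784-13026033, plus strand, F10 at chr8:13037058-13037307, plus strand and Proz at chr8:13060658-13060907, plus strand, in GRCm38.p6 from RefSeq.
F7: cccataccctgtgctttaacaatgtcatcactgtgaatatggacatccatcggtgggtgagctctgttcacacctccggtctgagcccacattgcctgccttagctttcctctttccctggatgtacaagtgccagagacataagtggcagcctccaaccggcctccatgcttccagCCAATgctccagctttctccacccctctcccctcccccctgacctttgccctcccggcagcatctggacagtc
F10: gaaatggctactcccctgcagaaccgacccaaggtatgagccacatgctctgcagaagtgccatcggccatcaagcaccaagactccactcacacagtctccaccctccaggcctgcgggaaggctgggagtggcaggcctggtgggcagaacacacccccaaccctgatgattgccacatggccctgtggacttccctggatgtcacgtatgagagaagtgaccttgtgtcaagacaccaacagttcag
Proz: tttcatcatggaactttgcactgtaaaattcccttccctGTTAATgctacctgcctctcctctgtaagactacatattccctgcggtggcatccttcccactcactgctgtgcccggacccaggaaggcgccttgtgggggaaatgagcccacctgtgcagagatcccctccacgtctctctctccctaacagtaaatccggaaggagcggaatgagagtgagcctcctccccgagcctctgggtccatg
F7 holds CCAAT starting 73 bases before its start, Proz holds GTTAAT starting 211 bases before its start, and F10 holds none of the motifs searched. No motif was thus shared by the F7 and Proz windows.

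No gene of the contact system, of fibrinogen and its cross-linking, of the plasminogen system or of the serpin and vitronectin group was called at either day. F11, for factor XI, came closest, at 97.2 ± 22.2 CPM in Eif3m siRNA livers against 74.1 ± 0.873 CPM in control livers at day 13 (SD, n = 3 each), with no overlap between the groups at either day. Its log2 fold change was 0.34 (adjusted p = 0.106, SE 0.13) at day 9 and 0.39 (SE 0.14, adjusted p = 0.050001) at day 13. It passed at day 13 in 4 of the 22 alternatives, including DESeq2 and the fit without Eif3m siRNA replicate 2 of day 13. At day 9 it passed in 3, including each day fitted alone and the fit without Eif3m siRNA replicate 3 of day 13. Adjusted p ran from 0.00901 to 0.315 at day 13 and from 0.0143 to 0.27 at day 9 over the alternatives. Klkb1, for prekallikrein, lies 4657 bases from F11 and had log2 fold changes of −0.09 and 0.07, the one pair of opposite sign among the 40 genes. F12, for factor XII, had −0.14 and −0.19. Kng1, for kininogen, had −0.33 and −0.24; it has a close copy, Kng2, with which counts may be shared.

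The fibrinogen chains, which lie together on chromosome 3, differed in sign. Fga, for the alpha chain, had log2 fold changes of −0.20 (adjusted p = 0.357, SE 0.13) at day 9 and −0.38 (adjusted p = 0.0515, SE 0.13) at day 13. Fgg, for the gamma chain, had −0.26 (adjusted p = 0.252, SE 0.14) and −0.39 (adjusted p = 0.0581, SE 0.14). Fgb, for the beta chain, had 0.08 (adjusted p = 0.755, SE 0.13) and 0.12 (adjusted p = 0.553, SE 0.13). Fga passed at day 13 in 8 of the 22 alternatives and Fgg in 5 (adjusted p 0.013 to 0.179 for Fga and 0.0215 to 0.235 for Fgg over the alternatives). Both passed with upper-quartile scaling, the filter at a mean of 5 CPM, DESeq2 and limma-voom, and without control replicate 3 of day 13. Fga also passed without Eif3m siRNA replicate 3 of day 13. F13b, for the carrier subunit of the cross-linking factor XIII, had 0.24 and 0.25. Whether the chains differed from each other was not tested.

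The plasminogen system and the serpins had small negative estimates at both days. Plg, for plasminogen, had −0.28 (adjusted p = 0.105, SE 0.11) and −0.29 (adjusted p = 0.0641, SE 0.11). Serpinf2, for the plasmin inhibitor antiplasmin, had −0.18 and −0.28, and Cpb2, for the carboxypeptidase that protects fibrin from plasmin, had −0.26 and −0.32. Serpinc1, for antithrombin, averaged 1779.9 ± 139 CPM in Eif3m siRNA livers against 2216 ± 133 CPM in control livers at day 13 (SD, n = 3 each), with log2 fold changes of −0.33 (adjusted p = 0.0617, SE 0.11) and −0.32 (adjusted p = 0.0518, SE 0.11). Serpind1, for heparin cofactor II, had −0.07 and −0.19, and Vtn, for vitronectin, had −0.16 and −0.15. Plg, Serpinc1 and Cpb2 were among the genes that passed at day 13 with upper-quartile scaling, with the filter at a mean of 5 CPM and with DESeq2. Serpinc1 passed in 5 of the 22 alternatives at each day (adjusted p 0.00204 to 0.19 at day 9 and 0.00325 to 0.174 at day 13 over the alternatives). At day 9 these included DESeq2, limma-voom, each day fitted alone and the fit without Eif3m siRNA replicate 2 of day 13. At day 13 they also included limma-voom and the fit without control replicate 3 of day 13.

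The effects at the 2 days were then compared directly, although day and library series cannot be told apart. No complement or coagulation gene was called for the day 13 effect minus the day 9 effect with edgeR's quasi-likelihood test, where 2.55% of all genes were (0.898% higher and 1.66% lower), and 5 of the 40 (12.5%) had an unadjusted p under 0.05, where 18.2% of all genes did. DESeq2 called 3 complement genes (C1ra, C4b and Cfb) and 1 coagulation gene (Proz). The sign of the log2 fold change was the same at both days for 18 of 18 complement genes and 21 of 22 coagulation genes, where it was for 65.6% of all genes. Across genes, which are not independent replicates and share their libraries within a day, Pearson's r between the log2 fold changes of the days was 0.840 in complement and 0.929 in coagulation, beside 0.393 over all genes tested. The filter for testing had a minimum count of 10, whereas no count of the 40 genes was under 277. The sets are thus unlike in counting error, which bears on both the signs and r.

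**Figure D5:**
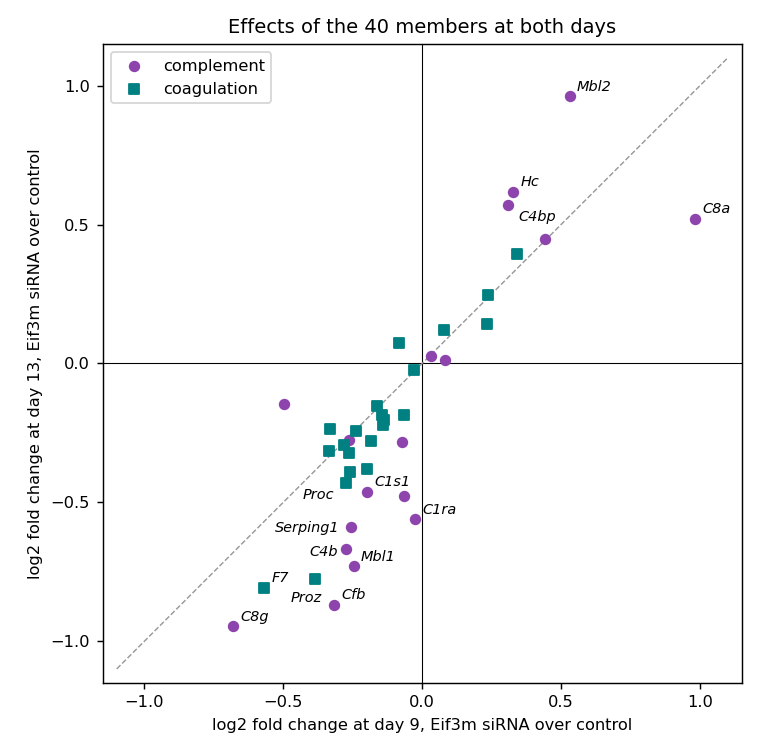
Log2 fold change (Eif3m siRNA over control) of the 40 genes at day 9 (horizontal) against day 13 (vertical), with the line of equal effects dashed; genes called at either day are named. Points lie in the lower left and upper right, with Klkb1 alone of opposite sign, and C8a lies below the line at 0.98 and 0.52.

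Other genes of the same systems were read from lists outside the 40. Counts in these lists and in the marker lists that follow stand beside the shares of all genes tested. At day 9, 5.94% of all genes rose and 6.84% fell, and at day 13, 12.8% rose and 10.9% fell. Of 30 other complement genes 27 were tested, and 1 rose and 4 fell at day 9, and 2 rose and 12 fell at day 13. C6, which joins C5b in the membrane attack complex, had 23.1, 21.0 and 15.2 CPM in Eif3m siRNA livers against 16.9, 16.0 and 17.8 CPM in control livers at day 9. C6 stood at 21.1, 18.5 and 31.9 CPM in Eif3m siRNA livers against 5.52, 7.69 and 7.91 CPM in control livers at day 13, a log2 fold change of 1.75 (adjusted p = 0.000129, SE 0.23). Clu, for clusterin, a fluid-phase inhibitor of that complex, had log2 fold changes of −0.66 (adjusted p = 0.0039, SE 0.12) and −0.95 (adjusted p = 0.000132, SE 0.12). C1qa, for a chain of C1q made by macrophages, had −0.44 (adjusted p = 0.0632, SE 0.15) and −1.17 (adjusted p = 0.0002, SE 0.16). Of 26 other coagulation and fibrinolysis genes 25 were tested: none rose and 2 fell at day 9, and 1 rose and 5 fell at day 13. Hrg, for the plasma protein histidine-rich glycoprotein, had −0.38 (adjusted p = 0.0359, SE 0.11) and −0.46 (adjusted p = 0.00708, SE 0.11), and Kng2 had −0.43 (adjusted p = 0.0143, SE 0.10) and −0.31 (adjusted p = 0.0413, SE 0.10). Of the 3 genes of the vitamin K cycle, 1 fell at both days. This was Ggcx, for the carboxylase that modifies prothrombin and factors VII, IX and X, with −0.48 (adjusted p = 0.0132, SE 0.11) and −0.73 (adjusted p = 0.000566, SE 0.12).

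Markers of liver cell types moved beside these genes. Of 9 Kupffer cell markers, 1 rose and 5 fell at day 9, and 6 fell at day 13. Their summed level was 482 to 543 CPM in Eif3m siRNA livers against 441 to 549.7 CPM in control livers at day 9, and 268 to 344 CPM in Eif3m siRNA livers against 474 to 527 CPM in control livers at day 13. The marker that rose at day 9 was Slc40a1, an iron exporter and the largest part of that sum in CPM, with log2 fold changes of 0.46 (adjusted p = 0.0318, SE 0.13) at day 9 and −0.65 (adjusted p = 0.00277, SE 0.13) at day 13. It is named after its values were seen. Without it the list summed to 142 to 170.2 CPM in Eif3m siRNA livers against 231 to 278 CPM in control livers at day 9, and to 88.7 to 154 CPM in Eif3m siRNA livers against 191 to 256 CPM in control livers at day 13. Clec4f, a lectin of Kupffer cells, had log2 fold changes of −2.00 (adjusted p = 0.000614, SE 0.26) and −1.69 (adjusted p = 0.000757, SE 0.27), and Folr2, a folate receptor of resident macrophages, had −1.54 (adjusted p = 7.51e-05, SE 0.15) and −0.95 (adjusted p = 0.00249, SE 0.19). Vsig4, a complement receptor of Kupffer cells that is also in the list of other complement genes, had −1.79 (adjusted p = 0.00065, SE 0.24) and −1.06 (adjusted p = 0.0149, SE 0.28).

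Of 10 monocyte and macrophage markers 9 were tested, and 2 rose at day 9 and 4 fell at day 13. Their summed level was 196 to 219.7 CPM in Eif3m siRNA livers against 114 to 145 CPM in control livers at day 9, and 110.3 to 136 CPM in Eif3m siRNA livers against 225 to 256 CPM in control livers at day 13. Of 10 endothelial markers, 1 rose at day 9 and 3 fell at day 13, with a summed level of 307 to 348 CPM in Eif3m siRNA livers against 276 to 308 CPM in control livers at day 9, and 252 to 284 CPM in Eif3m siRNA livers against 299 to 367 CPM in control livers at day 13. Of 10 stellate cell and matrix markers, 1 rose at day 9 and 5 fell at day 13, with a summed level of 370.5 to 419 CPM in Eif3m siRNA livers against 284 to 367 CPM in control livers at day 9, and 369.8 to 398 CPM in Eif3m siRNA livers against 471 to 662 CPM in control livers at day 13. Of 6 cholangiocyte markers 5 were tested, and 1 rose at day 13, with a summed level of 26.3 to 28.9 CPM in Eif3m siRNA livers against 20.3 to 25.7 CPM in control livers at day 9, and 26.3 to 34.6 CPM in Eif3m siRNA livers against 20.3 to 26.1 CPM in control livers at day 13. No marker of these lists was at 0 in every library. Some genes of the endothelial and stellate lists, such as Vwf and Colec10, are also in the lists of other coagulation and complement genes. Their falls at day 13 are counted in both. The summed levels of the Kupffer cell, macrophage, endothelial and stellate lists were thus lower at day 13. The Kupffer cell list without Slc40a1 was lower at day 9 as well. At day 13, 10 of the 40 genes fell and 4 rose, where 10.9% of all genes fell and 12.8% rose. The part of these cell types in the falls was not tested.

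Of 10 hepatocyte markers, 1 rose and 1 fell at day 9, and 2 rose and 3 fell at day 13. Hpx, for hemopexin, a heme-binding plasma protein, had log2 fold changes of 1.45 (adjusted p = 1.61e-05, SE 0.12) and 1.38 (adjusted p = 6.3e-06, SE 0.12). Ttr, for transthyretin, had −0.72 (adjusted p = 0.016, SE 0.17) and −0.63 (adjusted p = 0.0171, SE 0.17), and Fabp1, for the liver fatty acid binding protein, had −0.63 (adjusted p = 0.183, SE 0.29) and −1.25 (adjusted p = 0.00908, SE 0.30). The summed level of the list, mostly albumin, was 124622 to 135739 CPM in Eif3m siRNA livers against 140634 to 150236 CPM in control livers at day 9, and 127668 to 204131 CPM in Eif3m siRNA livers against 207265 to 238812 CPM in control livers at day 13. These hepatocyte transcripts moved in both directions, as did the complement genes and all genes tested, whereas the called coagulation genes only fell.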

How the data were processed

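Estimated counts per gene were used as the authors deposited them; the tools named in the submitters' processing notes are STAR 2.5.3a and RSEM 1.3.0, with genome build mm10. The strand setting is not given in the sources used here. Of 50686 gene IDs, 50462 matched a symbol in the reference annotation, and the others held 0.0199% of counts. Counts were rounded to whole numbers, genes were kept by edgeR's filterByExpr with a minimum count of 10, libraries were scaled with TMM, and 12 libraries in 4 groups were fitted with edgeR 4.0.16 (robust quasi-likelihood, 8 residual degrees of freedom; R 4.3.3). SEs are the log2 fold change over the square root of F. All tests are two-sided. The fit was also run on counts simulated from the means and dispersions estimated here. That run checks the code and cannot show whether the real counts follow the model. Alternatives used limma 3.58.1 (voom) and DESeq2 1.42.0.

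The members and lists were chosen with earlier results of these data known. Every member may be named; values of each library are given for up to 8 called members of each class by smallest p, and for others means, SDs or estimates. Genes outside the 40 are named where they have the smallest p among the called genes of their list, up to 3 a list. Shares of counts held by the members are given without a test, although an exact test of them had been planned. Coordinates are those of GRCm38.p6. Gene overlaps were read from the annotation: 10 of the 40 members share exon sequence with another gene. Deposited counts of members ranged from 277 upward, and their median SD within groups was 0.10 and 0.07 on the log2 CPM scale in Eif3m siRNA and control livers of day 9, and 0.17 and 0.14 in Eif3m siRNA and control livers of day 13. For all genes tested it was 0.12 and 0.13 at day 9 and 0.22 and 0.24 at day 13, in the same order.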

Additional observations from a re-analysis of the deposited data

Results flagged for a closer look

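None of the 40 complement and coagulation genes was called for a difference between the days, but 14 of the 103 tested genes in the lists beside them were, 3 higher and 11 lower. Of all genes tested, 2.55% were called for it, 0.898% higher and 1.66% lower. Of the 14, 5 are named here after their values were seen (Tfpi2, Slc40a1, Ccr2, Cd14 and Col1a1). Each difference below is the day 13 effect minus the day 9 effect on the log2 scale, tested in the same edgeR fit. Day and library series cannot be told apart in it. In complement, C6 differed by 1.53 (adjusted p = 0.0195, SE 0.30), with log2 fold changes of 1.75 at day 13 and 0.23 at day 9. Vwf, for von Willebrand factor, an endothelial product and carrier of factor VIII, differed by −0.79 (adjusted p = 0.0448, SE 0.19), with −0.63 at day 13 and 0.16 at day 9. Tfpi2, for a protease inhibitor of the coagulation list, went the other way, by 0.76 (adjusted p = 0.046, SE 0.18), with 0.55 at day 13 and −0.21 at day 9. Among macrophage markers, Lyz2 differed by −2.00 (adjusted p = 0.000664, SE 0.20), Adgre1 by −1.53 (adjusted p = 0.00536, SE 0.23), Csf1r by −1.39 (adjusted p = 0.00256, SE 0.18), Ccr2 by −1.64 (adjusted p = 0.046, SE 0.39) and Cd14 by −1.22 (adjusted p = 0.0477, SE 0.30). Slc40a1, of the Kupffer cell list, differed by −1.11 (adjusted p = 0.00862, SE 0.18). The endothelial marker Lyve1 differed by −2.07 (adjusted p = 0.00311, SE 0.29), and the matrix genes Col1a1, Col1a2 and Col3a1 by −2.34 (adjusted p = 0.0362, SE 0.49), −1.65 (adjusted p = 0.0209, SE 0.32) and −1.70 (adjusted p = 0.0209, SE 0.33). The cholangiocyte marker Sox9 differed by 1.71 (adjusted p = 0.00737, SE 0.27). Control levels themselves differed between the days for some of these genes. Mean CPM in control livers of day 9 and then day 13 was 42.0 and 111 for Lyz2 and 4.77 and 16.0 for Lyve1. For Slc40a1 it was 260 and 276. Means in Eif3m siRNA livers were 101 and 66.4 for Lyz2, 11.5 and 9.26 for Lyve1 and 358 and 176 for Slc40a1.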

How the results depend on the processing

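Directions of the calls held in each of the 22 alternatives, and 11 day 13 calls passed in all of them (C1ra, C1s1, C4b, C8g, Cfb, C4bp, Mbl1, Mbl2, Serping1, F7 and Proz), as did C8a and F7 at day 9. Complement falls at day 13 numbered 7 or 8 throughout. With 2 complement rises at day 9 in the reported fit, 1 was called with DESeq2 size factors, 1 with upper-quartile scaling and 4 with each day fitted alone. With 1 complement fall at day 9, 2 were called without a filter, 6 by DESeq2, 2 by limma-voom, 2 with each day alone, and 4 without Eif3m siRNA replicate 2 and control replicate 3 of day 13, an alternative chosen after seeing the data. Coagulation falls at day 9 were 2, against 4 by DESeq2, 4 by voom, 5 with each day alone and 5 without those libraries. Coagulation falls at day 13 were 3, against 8 with upper-quartile scaling, 8 with a mean of 5 CPM, 8 by DESeq2 and 7 by voom. A coagulation rise, F11, was called at day 9 with each day alone (1) and without those libraries (1), and at day 13 by DESeq2 (1), with day 9 thinned to the depth of day 13 (1) and without those libraries (1). For the difference between the days, complement calls were 1 with upper-quartile scaling, 1 with the filter at 5 CPM and 3 by DESeq2, and coagulation calls 1 by DESeq2. Leaving out 1 library gave 1 to 3 complement rises and 0 to 2 falls at day 9, 2 to 4 rises at day 13, 0 to 1 complement calls for the difference, 0 to 1 coagulation rises and 1 to 3 falls at day 9, and 0 to 1 rises and 2 to 6 falls at day 13. The complement median at day 9 ran from −0.15 to −0.016 on the log2 scale, and the other medians stayed below 0. The cause of these changes was not tested.

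With the replicate number as a block, complement had 1 rise and 1 fall at day 9 and 3 rises and 7 falls at day 13, and coagulation 1 fall at day 9 and 2 at day 13; the calls that ended were Mbl2 and Proz at day 9 and Hc and Proc at day 13. Same-numbered libraries correlated at −0.12, −0.15 and 0.22 at day 9 and at 0.18, −0.10 and −0.05 at day 13. Libraries of unlike number correlated at −0.17 to 0.24 at day 9 and at −0.19 to 0.21 at day 13. With 3 same-numbered values a day, these correlations cannot decide whether the numbers pair the samples.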
